A study of Mus musculus with 8 samples.

Results

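The 10 genes described here have a transcription that is known to follow serum response factor (SRF) or the co-activator YAP, and were measured in Hepa 1-6 cells, an established mouse hepatoma line. They are the actin genes *Actb*, *Actg1* and *Acta2*, the actin-binding protein genes *Tagln* and *Vcl*, *Srf* itself, the matricellular protein genes *Ctgf* (also *Ccn2*) and *Cyr61* (also *Ccn1*), and *Ankrd1* and *Amotl2*. These are 10 of the 21915 genes in the mRNA-seq table. They were selected on their change between *Kap1* KD and control samples within each replicate number and on their change between replicates. Their values in both comparisons are therefore given as a description, and no test is drawn on them. Calls from fits over all genes are stated for them, and nothing is read from those calls. The table holds 4 samples, 2 per group, all collected 5 days after transduction. The 2 *Kap1* KD samples were from cells given an shRNA against *Kap1* (gene symbol *Trim28*), the corepressor that KRAB zinc-finger proteins recruit to chromatin. The 2 control samples were from cells given a control shRNA vector per the labels and an empty vector per the methods of the study. In both groups the methods describe lentiviral transduction and puromycin selection, so each sample is a selected population and not a clone. The labels mark 1 sample of each group with the number 2, and the sample with no number was taken as replicate 1. They do not say whether the samples came from separate cultures, so SDs and p-values cover only the spread between these samples, which may be technical. The fits pool that spread over genes, so a p-value does not measure the spread of a single gene.

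SRF is a transcription factor that binds CArG boxes and works through 2 kinds of partner. Myocardin-related factors (MRTF) are held by monomeric actin, enter the nucleus when actin polymerizes and drive genes of the actin cytoskeleton, and ternary complex factors (TCF) answer to MAP kinase signalling and drive immediate early genes. YAP and its relative TAZ have no DNA-binding domain of their own and act through TEAD factors, whose motif is GGAATG, which reads as CATTCC on the other strand. The kinases of the Hippo pathway retain YAP in the cytoplasm, and tension on the actin cytoskeleton releases it, so that both pathways read the state of actin. In liver, actin remodelling and YAP activity accompany regeneration, fibrosis and hepatoma growth.

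The promoters of 7 of the 10 genes were matched in RefSeq (GRCm38.p6): *Actg1*, *Acta2*, *Vcl*, *Srf*, *Cyr61*, *Ankrd1* and *Amotl2*. The CArG box, the TEAD motif and the AP-1 motif TGANTCA were searched on both strands, and no match of one motif overlapped a match of another. The motifs were not part of the rule that chose the genes. The genes were listed as known targets of SRF or YAP, so a share above that of all promoters is not independent of that choice. The CArG box was searched as CCWWWWWWGG (W is A or T), with no mismatch allowed. Near matches, such as ccctatatgg and ccttgtttgg upstream of *Acta2*, were not counted. The CArG box in this strict form was found in 3 of the 7 promoters, against 1.63% of 32851 mouse promoters of the same length. It starts 90 bases before the annotated transcription start of *Actg1*, 227 bases before that of *Vcl*, and 82 and 62 bases before that of *Srf*. The TEAD motif was found in 5 of the 7, against 14.7% of all promoters. It starts 146 bases upstream in *Acta2*, 143 in *Vcl*, 103 in *Cyr61*, 210 and 123 in *Ankrd1*, and 65 in *Amotl2*. The AP-1 motif was in 0 of the 7 and in 7.81% of all promoters. The same motifs were searched in other genes of these pathways, which are listed further below. The CArG box was in 5 of 24 MRTF-SRF, 1 of 6 immediate early, 0 of 14 YAP-TEAD and 0 of 15 Hippo genes. For the TEAD motif these were 6 of 24, 3 of 6, 5 of 14 and 7 of 15. A match is a description of the letters, and binding was not measured here. The 250 bases before the start are shown for *Srf*, *Actg1* and *Vcl*, which hold a CArG box, and for *Cyr61*, *Ankrd1* and *Amotl2*, which hold the TEAD motif alone, with the matches in capitals and the coordinates in GRCm38.p6.
Srf (chr17:46556163-46556412, minus strand): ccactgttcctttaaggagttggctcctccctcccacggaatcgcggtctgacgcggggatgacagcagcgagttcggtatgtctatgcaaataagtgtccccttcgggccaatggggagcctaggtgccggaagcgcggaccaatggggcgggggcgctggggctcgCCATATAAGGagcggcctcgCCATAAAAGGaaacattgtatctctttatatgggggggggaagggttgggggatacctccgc
Actg1 (chr11:120348496-120348745, minus strand): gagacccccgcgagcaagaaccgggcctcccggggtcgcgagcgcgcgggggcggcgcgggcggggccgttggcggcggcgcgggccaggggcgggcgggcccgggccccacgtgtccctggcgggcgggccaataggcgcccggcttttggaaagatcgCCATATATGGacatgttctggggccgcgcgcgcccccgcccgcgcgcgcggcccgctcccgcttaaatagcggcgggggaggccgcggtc
Vcl (chr14:20929148-20929397, plus strand): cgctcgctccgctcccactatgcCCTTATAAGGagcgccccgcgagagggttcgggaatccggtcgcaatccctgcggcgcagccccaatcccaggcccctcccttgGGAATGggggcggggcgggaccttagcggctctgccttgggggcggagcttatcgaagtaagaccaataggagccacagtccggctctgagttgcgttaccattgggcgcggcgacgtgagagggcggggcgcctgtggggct
Cyr61 (chr3:145649986-145650235, minus strand): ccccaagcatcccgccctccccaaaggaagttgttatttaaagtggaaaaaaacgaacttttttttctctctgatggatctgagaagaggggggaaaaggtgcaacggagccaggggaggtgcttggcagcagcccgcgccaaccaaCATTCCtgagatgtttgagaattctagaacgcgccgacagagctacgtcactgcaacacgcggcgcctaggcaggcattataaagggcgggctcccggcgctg
Ankrd1 (chr19:36119845-36120094, minus strand): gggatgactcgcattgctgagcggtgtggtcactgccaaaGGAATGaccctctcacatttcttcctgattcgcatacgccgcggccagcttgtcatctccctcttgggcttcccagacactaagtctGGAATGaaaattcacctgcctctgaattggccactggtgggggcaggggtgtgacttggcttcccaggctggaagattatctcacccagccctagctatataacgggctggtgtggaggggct
Amotl2 (chr9:102717554-102717803, plus strand): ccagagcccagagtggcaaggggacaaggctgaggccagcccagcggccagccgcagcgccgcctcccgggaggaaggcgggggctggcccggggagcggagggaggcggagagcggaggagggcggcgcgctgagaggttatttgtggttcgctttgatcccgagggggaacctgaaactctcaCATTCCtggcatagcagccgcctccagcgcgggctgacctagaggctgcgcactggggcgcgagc

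Total counts ran from 41566888 to 53605115 per sample. *Trim28* (ENSMUSG00000005566) was at 456 and 575 CPM (counts scaled to the library size, here with TMM factors) in the control samples and at 106 and 78.9 CPM in the *Kap1* KD samples, a log2 change of -2.48 (SE 0.25) in the direction of the labels, though with an adjusted p of 0.99994 this gene was not called either; with the replicate number as a block it was, at the same log2 change of -2.48. Among hepatocyte markers, *Alb* and *Afp* were abundant, at 1036.5 to 1580 and 697 to 750.5 CPM in control and at 441 to 975 and 445 to 604 CPM in *Kap1* KD samples, while *Ttr* had 11 counts at most. The 5 measured smooth muscle markers summed to 0.657 to 1.23 CPM, and the 4 endothelial markers to 0.162 to 0.282 CPM. Of the 7 measured fibroblast and stellate markers, *Dcn* alone reached 1227 to 1700 CPM, and *Col1a2*, *Pdgfrb* and *Lum* had no more than 1 count in any sample.

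Levels were compared between genes per length of exon, as RPKM (CPM divided by the exon length in kilobases). The cytoplasmic actins stood above all the other members. *Actb* (chr5:143664794-143668433, minus strand, all gene coordinates in mm9), the beta-actin of non-muscle cells, was at 930.3 and 1373 RPKM in control replicates 1 and 2 and at 970.3 and 1362.5 RPKM in *Kap1* KD replicates 1 and 2. *Actg1* (chr11:120207004-120209856, minus strand), the gamma-actin found beside it, was at 504 and 711 RPKM in control and at 545 and 779 RPKM in *Kap1* KD samples. Of the 100-base windows within exons of *Actg1*, 55.3% have an exact second copy in the genome, at 8 other places, and 1 alignment was kept per read, so the level of this gene is uncertain. No window of the other 9 genes has such a copy.

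The YAP-TEAD targets came next. *Ankrd1* (chr19:36186455-36194334, minus strand), a nuclear and sarcomeric ankyrin repeat protein induced by stretch, ran from 87.4 to 108 RPKM. *Ctgf* (chr10:24315248-24318489, plus strand), a secreted matricellular protein that promotes fibrosis, ran from 55.5 to 109 RPKM. *Cyr61* (chr3:145309935-145312949, minus strand), its relative in the CCN family, ran from 36.2 to 66.8 RPKM. *Amotl2* (chr9:102619002-102635748, plus strand), an angiomotin that binds YAP and restrains it, ran from 14.0 to 25.7 RPKM. The lower levels were those of *Srf* (chr17:46683788-46693111, minus strand), at 11.1 to 19.96 RPKM, and of *Vcl* (chr14:21748655-21852895, plus strand), encoding the focal adhesion protein vinculin, at 10.9 to 11.8 RPKM. In this order the ranges over the 4 samples overlapped between *Ankrd1* and *Ctgf*, *Ctgf* and *Cyr61*, *Amotl2* and *Srf*, and *Srf* and *Vcl*, so these neighbours were not separated beyond their spread.

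The smooth muscle genes of the set were close to the limit of detection. *Tagln* (chr9:45737711-45744141, minus strand), encoding the actin-bundling protein SM22, was covered by 34 and 23 counts in control samples and by 19 and 15 in *Kap1* KD samples, or 0.202 to 0.385 RPKM. *Acta2* (chr19:34315580-34329826, minus strand), the alpha-actin of smooth muscle and activated stellate cells, was covered by 1 and 2 counts in control samples, and by 0 and 1 in *Kap1* KD samples. A count of 0 allows up to 3 counts, 0.0704 CPM in *Kap1* KD replicate 1, for counting error only. *Acta2* did not pass the filter on low counts and no fold is given for it, which leaves 9 of the 10 genes among the 14142 tested. The smooth muscle genes *Cnn1*, *Myh11*, *Lmod1* and *Myocd* were as low, at 0 to 4 counts, while *Des*, encoding desmin, had 26 to 56 counts and made up most of the summed level of these markers.

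**Figure D1:**
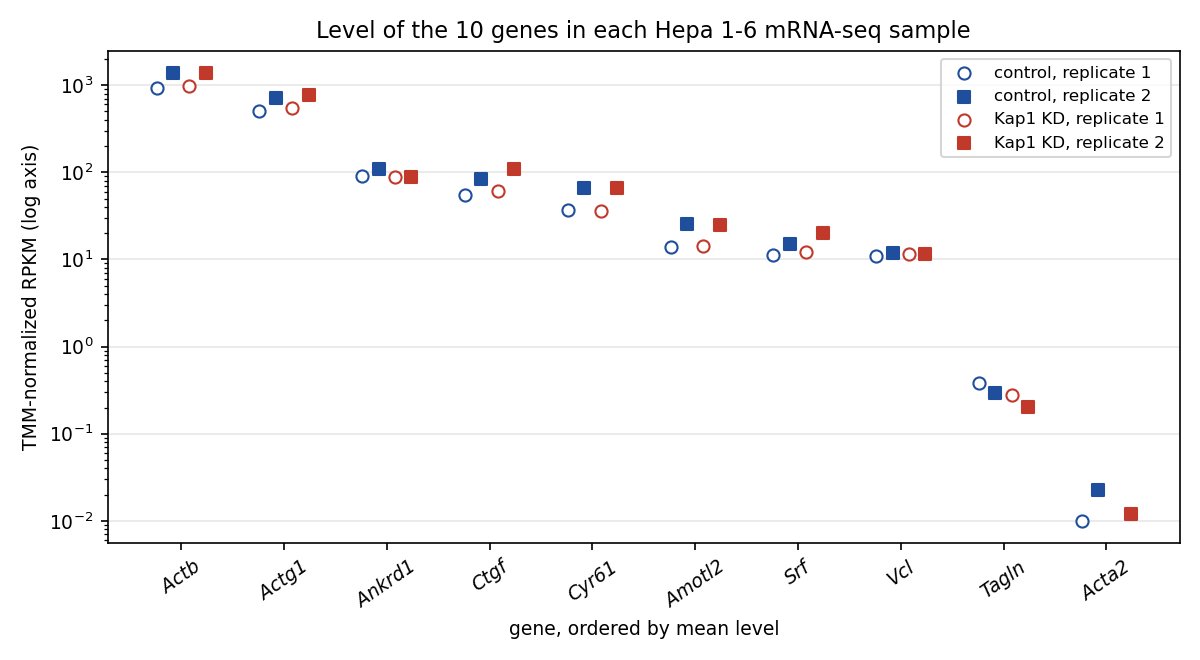
Level of each of the 10 genes (TMM-normalized RPKM, log axis) in the 4 samples, ordered by mean level; circles are replicate 1 and squares replicate 2, blue is control and red *Kap1* KD, and the 0 of *Acta2* in *Kap1* KD replicate 1 is not drawn. From *Actb* at 930.3 to 1373 RPKM down to *Tagln* below 0.385 RPKM, the squares of *Ctgf*, *Cyr61*, *Amotl2*, *Srf* and both cytoplasmic actins lie above the circles of the same gene in both groups.

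The first comparison asked which of these genes differ after *Kap1* knock-down. A gene was called in edgeR when it passed 1.5-fold in either direction with an adjusted p (Benjamini-Hochberg) under 0.05. None of the 9 tested members was called, beside 0% of all tested genes, none of which was called in either direction, so nothing is read from this count. With the replicate number as a block in the fit, 4.46% of all tested genes were called, and again none of the members. The hepatocyte markers were lower in *Kap1* KD samples, where the 8 genes summed to 1722 and 1105 CPM in replicates 1 and 2, against 2463 and 2089 CPM in control. All 7 tested markers had a log2 change below 0, from -1.35 (*Apoa1*, with 5 to 21 counts) to -0.09 (*Foxa3*). None was called without the block, while with it *Alb* (-0.96), *Apob* (-1.21) and *Apoa1* (-1.36) were called lower and the others were not. The part of these markers in the members' values was not tested. At an unadjusted p under 0.05 edgeR without the block gave 185 of the 14142 genes (1.31%), and DESeq2 without it called 3. In a bulk sample a smaller number of expressing cells and less RNA per cell cannot be told apart.

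For most members the 2 groups overlapped. *Actb* was at 2492 and 3677 CPM in control and at 2599 and 3650.1 CPM in *Kap1* KD replicates 1 and 2, with means of 3085 ± 838 and 3125 ± 743 (SD, n = 2). The difference between the groups was small beside that between the numbers 1 and 2 within each group. *Vcl* was at 57.2 and 61.9 CPM in control and at 60.8 and 59.8 CPM in *Kap1* KD samples. It was the steadiest of the 9 genes, with a range of 0.12 on the log2 scale over the 4 samples. *Cyr61* was at 74.9 and 135 CPM in control and at 73.5 and 135 CPM in *Kap1* KD samples, and *Amotl2* at 87.8 and 162 CPM in control and 89.0 and 157 CPM in *Kap1* KD samples. In both of these genes the groups had near-equal means, 105 ± 42.6 and 104 ± 43.8 CPM for *Cyr61* and 125 ± 52.3 and 123 ± 48.4 CPM for *Amotl2* (SD, n = 2).

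*Srf*, *Ctgf* and *Actg1* were higher in *Kap1* KD than in control samples within each replicate number. *Srf* was at 45.5 and 61.3 CPM in control and at 49.4 and 81.7 CPM in *Kap1* KD samples, a difference of log2(CPM + 0.1) of 0.12 in replicate 1 and 0.41 in replicate 2. *Ctgf* was at 138 and 207 CPM in control and at 151 and 270.4 CPM in *Kap1* KD samples, a difference of 0.13 and 0.39. In both genes *Kap1* KD replicate 2 was the highest of the 4 samples and control replicate 2 lay above *Kap1* KD replicate 1, so the groups overlapped. The fitted log2 changes were 0.30 (SE 0.32) for *Srf* and 0.29 (SE 0.36) for *Ctgf*. With 1 sample left out they ran from -0.11 to 0.61 and from -0.18 to 0.65, the lowest without *Kap1* KD replicate 2 and the highest without *Kap1* KD replicate 1, and with GC offsets, an alternative chosen after seeing the data, they were 0.11 and 0.24. *Actg1* was at 1339 and 1890.2 CPM in control and at 1449 and 2070 CPM in *Kap1* KD samples, a difference of 0.11 and 0.13.

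*Tagln* and *Ankrd1* were the 2 of 9 members whose groups did not overlap, both with the *Kap1* KD samples below the controls; over all tested genes, 20.3% had groups that did not overlap with *Kap1* KD lower in 10.6% and higher in 9.69%. *Tagln* was at 0.610 and 0.464 CPM in control and at 0.446 and 0.321 CPM in *Kap1* KD samples, with 15 counts in the lowest sample. *Ankrd1* was at 160 and 191 CPM in control and at 157 and 154 CPM in *Kap1* KD samples, so that most of its difference lay between the replicates numbered 2, where it was -0.31 against -0.03 in replicate 1. Of the 9 members, 5 had the same sign in both pairs, 3 higher and 2 lower, beside 71% of all tested genes, 32.8% higher and 38.1% lower.

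The second comparison set the samples numbered 2 against those taken as 1, with the group as a term in the fit. *Cyr61*, *Amotl2* and *Ctgf* were the 3 of 9 members called, all higher in replicate 2 and none lower. This contrast was used to choose the genes, so the count is a description beside the share of all genes and nothing is read from it. Over all tested genes 26.5% were called, 9.08% higher (1284 genes) and 17.4% lower. With total counts in place of TMM as the scaling, 847 of 3804 called genes were higher, and the same 3 members were called. *Cyr61* was 1.80-fold higher in replicate 2 among the control samples and 1.84-fold among the *Kap1* KD samples, and its log2 change was 0.87 (SE 0.08). *Amotl2* was 1.84-fold and 1.77-fold higher, with a log2 change of 0.85 (SE 0.07). In both genes the replicate difference was nearly the same in the 2 groups. *Ctgf* was 1.497-fold higher in control and 1.79-fold higher in *Kap1* KD samples, with a log2 change of 0.71 (SE 0.06), and it was not called without control replicate 1 or without *Kap1* KD replicate 2, when 2 members were.

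*Srf*, *Actb* and *Actg1* also had both samples numbered 2 above both samples taken as 1. *Srf* was 1.35-fold higher in control and 1.65-fold higher in *Kap1* KD samples, *Actb* 1.48-fold and 1.40-fold, and *Actg1* 1.41-fold and 1.43-fold. Their log2 changes were 0.58 (SE 0.08), 0.53 (SE 0.06) and 0.51 (SE 0.06), all short of the fold needed for a call. With the other 3 this made 6 of 9 members, beside 35.5% of all tested genes with replicate 2 higher, 37.2% with it lower and 72.7% in either direction. *Srf* was called with DESeq2, with median-of-ratios scaling, without a filter on low counts, without the group term and without control replicate 2, which gave 4 members. The remaining 3 had samples of the 2 numbers that overlapped. *Ankrd1* had a log2 change of 0.11 (SE 0.07), *Vcl* of 0.05 (SE 0.08), or -0.05 with total counts as the scaling, and *Tagln* of -0.43 (SE 0.36). The median over the 9 members was 0.53, beside 0.00 over all tested genes. This contrast was used to choose the genes, so nothing is read from this median or from the count of 6.

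**Figure D2:**
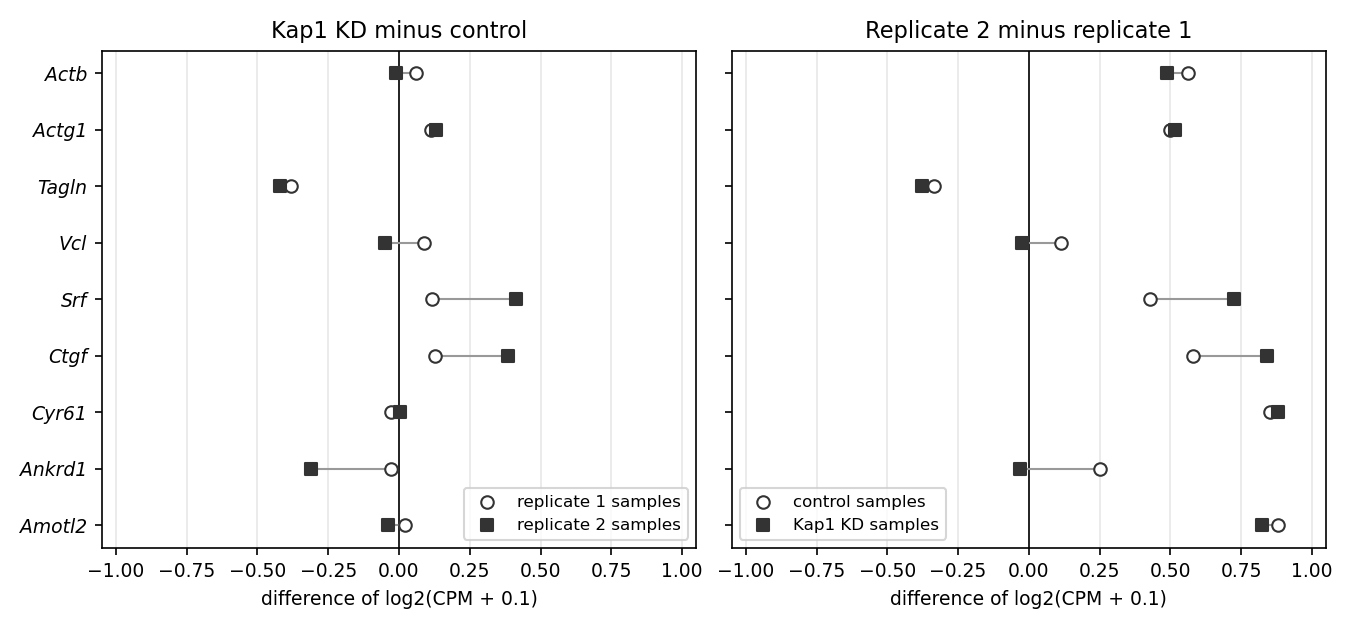
Differences of log2(CPM + 0.1) for the 9 tested genes, on the left *Kap1* KD minus control within replicate 1 (open circles) and replicate 2 (filled squares), and on the right replicate 2 minus replicate 1 within control (open circles) and *Kap1* KD samples (filled squares). On the left all points lie between -0.42 and 0.41, while on the right *Cyr61* and *Amotl2* lie at 0.82 to 0.88 in both groups.

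The difference between the replicates moved with the base composition of the exons. Over the 14118 tested genes with a known GC content, it correlated with exon GC with a Spearman coefficient of 0.66, a description across genes of the same 4 libraries. In 20 bins of GC the median log2 change ran from -0.90 in the bin of lowest GC to 0.45 in the highest. The 9 members had 46.8% (*Ankrd1*) to 60.1% (*Srf*) GC, beside a median of 49.8% over the genes with a value. *Srf*, with a log2 change of 0.58, lay in the highest bin, whose median was 0.45, and *Actg1*, with 0.51, in a bin with a median of 0.33. *Cyr61* and *Ctgf*, at 0.87 and 0.71, lay in bins with medians of 0.22 and 0.19, and *Amotl2*, at 0.85, in 1 with 0.36.

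When each sample was centred within these bins, an alternative chosen after seeing the data, the log2 change was 0.13 for *Srf*, 0.18 for *Actg1* and 0.33 for *Actb*. It was 0.65 for *Cyr61*, 0.51 for *Ctgf* and 0.50 for *Amotl2*, and *Cyr61* was the 1 member past the thresholds, again a count from which nothing is read, beside 12.8% of tested genes in either direction, 5.06% higher and 7.72% lower. *Ankrd1*, whose GC content was the lowest of the 9, went from 0.11 to 0.32. Of the macrophage and leukocyte markers, *Cd68* and *Csf1r* were also higher in both samples numbered 2, and the 4 genes summed to 4.23 and 5.04 CPM in replicate 1 and to 9.66 and 9.78 CPM in replicate 2, with *Ptprc* and *Emr1* at 8 counts or fewer in every sample. The 8 hepatocyte markers did not move one way between replicates: *Alb*, encoding serum albumin, had a log2 change of -0.88, and *Hnf4a*, a transcription factor of hepatocytes, 0.84, with both called, and *Foxa3* 0.55. The part of these markers in the difference between replicates was not tested.

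**Figure D3:**
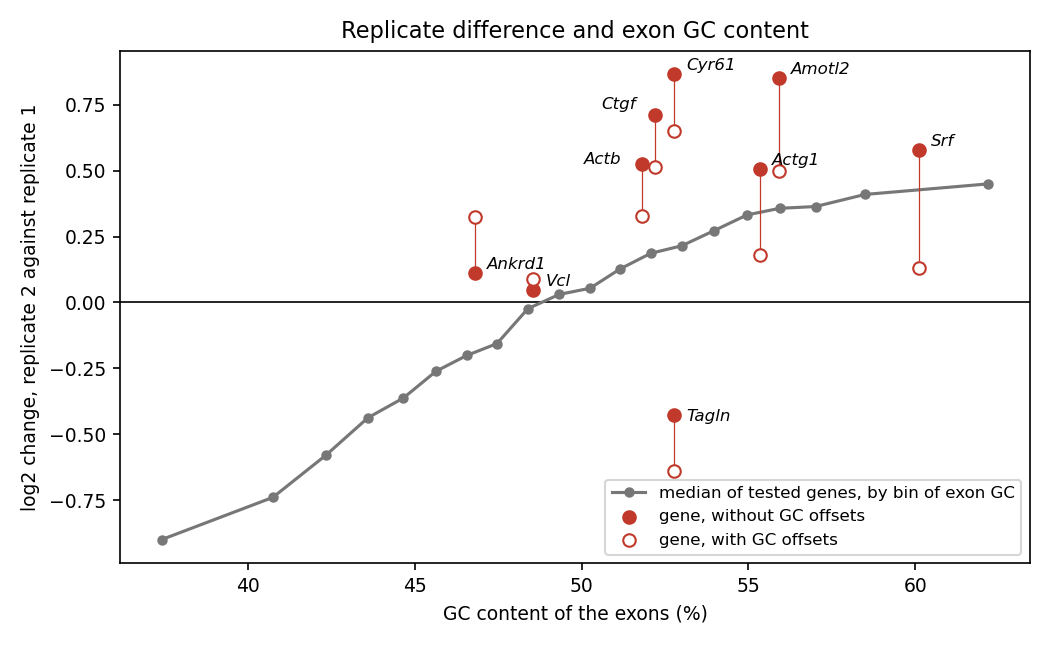
Log2 change of replicate 2 against replicate 1 against exon GC content (%), with the median of the tested genes in each of 20 GC bins (grey, at the middle of the bin) and the 9 tested members without (filled red) and with GC offsets (open red). The grey line runs from -0.90 to 0.45; *Cyr61*, *Amotl2* and *Ctgf* lie above it at 0.71 to 0.87, and *Srf* moves from 0.58 to 0.13 with the offsets.

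*Ctgf* had the widest range of the 9 tested members, 0.97 on the log2 scale. Among 11031 genes with at least 100 counts on average, the patterns over the 4 samples closest to that of *Ctgf*, by the Euclidean distance between centred log2 CPM values, were those of *Mon1a* (0.030), *1810043G02Rik* (0.032), *Traf4* (0.036), *Dok1* (0.041) and *Tpst2* (0.042). *Traf4*, an adaptor of tumour necrosis factor receptors and the most abundant of these, was at 178 and 271 CPM in control and at 193 and 356 CPM in *Kap1* KD samples. It was chosen for its closeness to *Ctgf*, so being highest in *Kap1* KD replicate 2 and lowest in control replicate 1 follows from that choice.

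Other genes of the pathways were taken from 4 lists of 72 measured genes, 65 of which were tested. In *Kap1* KD against control, edgeR without the replicate block called none of them, beside 0% of all tested genes. Nothing is read from that count. With the block it called 7, beside 4.46% of all tested genes. *Fosb* and *Egr1* were higher, and *Tpm2*, *Mylk*, *Fhl1*, *Ptpn14* and *Rbms3* lower. Counts were low for *Rbms3* (1 to 20 per sample), *Fhl1* (16 to 58), *Ptpn14* (24 to 96), *Tpm2* (42 to 109) and *Fosb* (69 to 149). The values that follow are from the fit without the block. The 23 tested MRTF-SRF targets had a median log2 change of 0.07, and the farthest from 0 was *Fhl1*, encoding a LIM protein of muscle, at -1.17 (SE 0.40) and an adjusted p of 0.99994. The 8 TCF-SRF immediate early genes were all above 0, with a median of 0.43 beside -0.02 over all tested genes. This comparison also moved with exon GC, with a Spearman coefficient of 0.33 across genes. Its median ran from -0.17 in the bin of lowest GC to 0.17 in the highest. These 8 genes had a median exon GC of 54.9%, and the part of GC in their values was not tested. *Fosb*, encoding a subunit of AP-1, was farthest, at 1.24 and 1.83 CPM in control and 1.85 and 3.19 CPM in *Kap1* KD samples, a log2 change of 0.72 (SE 0.42) and an adjusted p of 0.99994.

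The YAP pathway genes gave the same count of 0 calls without the block, from which nothing is read. The 17 other YAP-TEAD targets had a median of -0.12, and *Rbms3*, an RNA-binding protein gene, was farthest at -1.75 (SE 0.85), with 0.0214 to 0.359 CPM over the 4 samples and an adjusted p of 0.99994. The 17 Hippo components had a median of -0.04, and *Lats1*, the kinase that phosphorylates YAP, was farthest at -0.31 (SE 0.38), with an adjusted p of 0.99994. *Yap1* was at 75.9 and 72.1 CPM in control and at 73.1 and 74.5 CPM in *Kap1* KD samples.

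Between replicates 15 of the 65 genes were called, beside 26.5% of all tested genes, 9.08% higher and 17.4% lower. Nothing particular to a list is read from this count or from the counts per list that follow. This fit, with group and replicate number as terms, leaves 1 residual degree of freedom. Its SEs and adjusted p-values rest on a spread pooled over genes, which may be technical, and do not measure the spread of a single gene. *Junb*, for example, differed between replicates by 0.45 in control and 1.06 in *Kap1* KD samples, with an SE of 0.06. Of the 23 MRTF-SRF targets 4 rose and 1 fell in replicate 2, with a median of 0.39. The largest increases were in *Smtn*, encoding smoothelin (log2 change 1.06, adjusted p = 9.8e-44), *Cnn2*, encoding a non-muscle calponin (0.93, adjusted p = 7.6e-41), and *Mylk*, the myosin light chain kinase (0.91, adjusted p = 6.1e-09). *Smtn* was at 69.0 and 133 CPM in control and at 83.5 and 188 CPM in *Kap1* KD samples, so both samples numbered 2 lay above the others. *Filip1l* fell (-0.63, adjusted p = 4.4e-06). Of the 8 immediate early genes, with a median of 0.27, 2 rose, *Junb* (0.76, adjusted p = 3.1e-31) and *Fosb* (0.68, adjusted p = 0.0017), both subunits of AP-1.

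The lists of the YAP pathway had medians of 0.09 for the other YAP-TEAD targets and -0.11 for the Hippo components. Of the 17 YAP-TEAD targets, *Ptpn14*, a phosphatase that binds YAP, rose (0.77, adjusted p = 0.0061), *Gadd45a*, a stress response gene, fell (-1.14, adjusted p = 2.1e-17), and none of the others was called. Over all tested genes 9.08% were called higher and 17.4% lower, so nothing is read from this count either. Of the 17 Hippo components 2 rose and 4 fell, beside 9.08% of all tested genes higher and 17.4% lower, so nothing particular to the list is read from this count. *Tead3* (0.79, adjusted p = 1.6e-15) and *Tead2* (0.69, adjusted p = 3.3e-18), which encode DNA-binding partners of YAP, rose. *Mob1b* (-1.23, adjusted p = 1.7e-34), an activator of the LATS kinases, *Stk3* (-0.88, adjusted p = 8.4e-21), the MST2 kinase, and *Lats1* (-0.73, adjusted p = 8.1e-22) were lower in replicate 2, as was *Mob1a*. *Yap1* and its relative *Wwtr1*, which encodes TAZ, were at -0.02 and 0.05 and were not called.

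Fewer of these genes were called with GC offsets, as over all tested genes, where the share went from 26.5% to 12.8%. With GC offsets 4 of the 65 genes were called, *Smtn*, *Cnn2* and *Mylk* higher and *Gadd45a* lower, and no Hippo component, beside 12.8% of all tested genes. The median exon GC was 52.9% for the MRTF-SRF targets, 54.9% for the immediate early genes and 46.9% for the Hippo components. When 1 sample was left out, the count went up or down with the sample, and nothing is read from it.

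**Figure D4:**
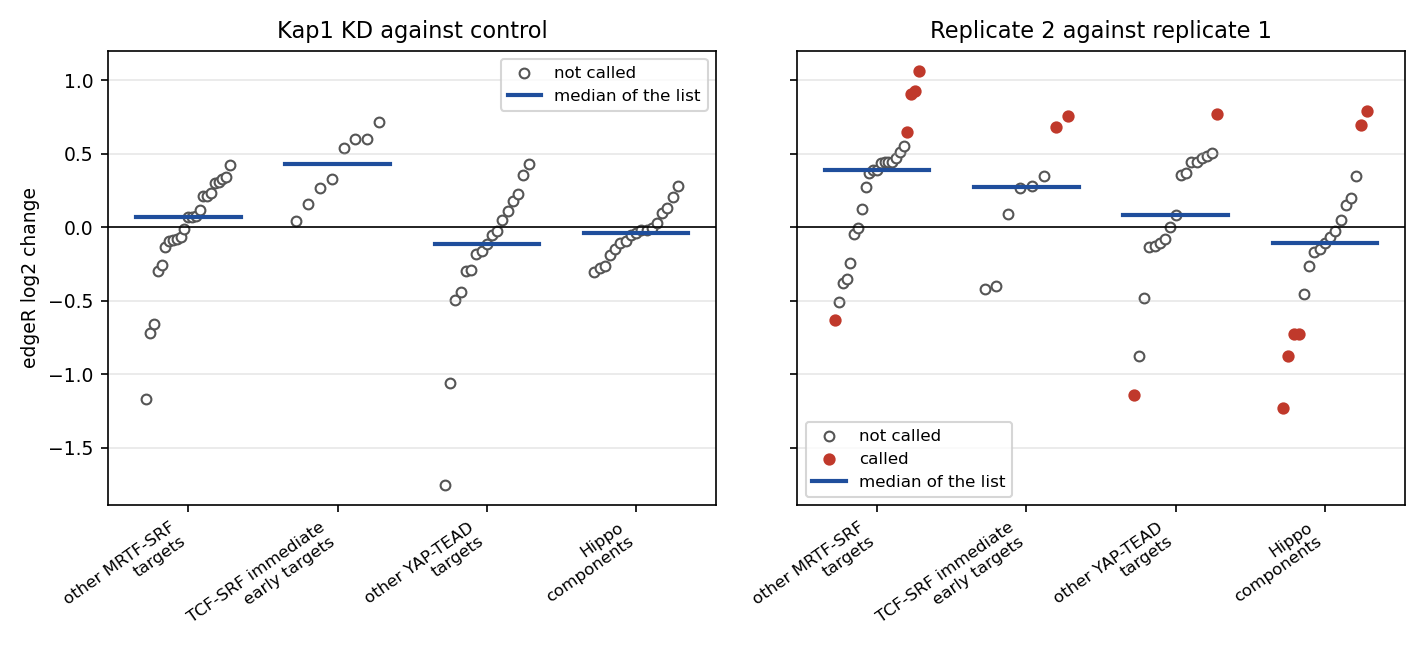
Log2 change of each tested gene of the 4 pathway lists in *Kap1* KD against control without the replicate block (left) and replicate 2 against replicate 1 (right), with called genes in red, the others as open circles and the median of each list as a blue bar. No gene is red on the left; on the right 15 are, from *Mob1b* at -1.23 to *Smtn* at 1.06.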

How the data were processed

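Polyadenylated RNA of 4 Hepa 1-6 samples (2 control, 2 *Kap1* KD) was sequenced by the authors as single 100-base reads, and the deposited values are whole-number counts per Ensembl gene. Per the submitters' processing notes and the methods, the authors aligned reads to mm9 with TopHat2 2.0.11, keeping 1 alignment per read, and counted them with HTSeq 0.6.1. Tables of small RNA were not used here, since they hold tRNA and snoRNA sequences. Symbols and coordinates came from an annotation of the same build, which matched 21806 of 21915 identifiers. The members and lists were chosen with earlier results of these data known. A further list of genes is not reported here.

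Counts were tested with edgeR 4.0.16 in R 4.3.3 (filterByExpr, TMM scaling, quasi-likelihood test, Benjamini-Hochberg adjustment over 14142 genes), with group alone for *Kap1* KD and with group and replicate number for the replicates; calls needed 1.5-fold and an adjusted p under 0.05. Each SE was taken as the log2 change over the root of its F statistic. The scripts were tested on simulated data, where they returned the known changes between replicates, and those of *Kap1* KD when no difference between replicates was simulated but not when the measured one was. For the replicates, 200 genes were changed 2-fold and no other change was simulated. The data are unlike this, since their replicate difference is wider and moves with exon GC. DESeq2 1.42.0 was an alternative. Second copies of exon windows were searched with BLAST 2.17.0. Intervals and floors cover counting error only. The named genes were *Trim28*, the members, from each list up to 3 genes called in each direction per comparison or, where none was called, the 1 farthest from 0, and the 5 genes most like the member of widest range; further list genes named for their role or to complete a count were chosen after their values were seen.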

Additional observations from a re-analysis of the deposited data

How the results depend on the processing

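No member was called in *Kap1* KD against control under any alternative run, and the order of the members' levels was the same with the longest transcript as length. Over all genes, that comparison gave 0 calls in the fit reported, 3 with DESeq2 and 3 to 65 when 1 sample was left out, where the lone sample of a group is assumed to vary like the other samples. The replicate numbers were not taken as a pairing, because there are 2 pairs and the labels do not say what the number marks, although same-numbered samples deviated together (correlation of deviations 0.81). With the replicate number as a block, which leaves 1 residual degree of freedom, edgeR called 631 genes (4.46%), DESeq2 234, and edgeR with GC offsets 564. Of the pathway lists the block called 7 genes (*Fosb* and *Egr1* higher, *Tpm2*, *Mylk*, *Fhl1*, *Ptpn14* and *Rbms3* lower). DESeq2 with the block called 1 (*Egr1*), and the block with GC offsets 6. The fits with 1 sample left out had no block, so they do not bear on these calls.

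Between replicates 3748 genes were called, 8990 by adjusted p alone, 1804 with GC offsets, of which 1334 were shared with the 3748, and 1332 to 4110 when 1 sample was left out, the lowest without control replicate 1 and 2443 without *Kap1* KD replicate 2. The 3 members became 6 by adjusted p alone, 1 with GC offsets and 2 to 4 with 1 sample left out. The 15 list genes became 43, 4 and 6 to 19, the lowest without control replicate 1. DESeq2, other scalings and the absence of a low-count filter or group term kept these counts within 1.5 times. By adjusted p alone 8990 of 14142 tested genes were called, beside 6 of 9 members and 43 of 65 list genes. With GC offsets 12.8% of tested genes were called. Nothing particular to the members or the lists is read from their counts under any of these settings. The fitted *Kap1* KD change of members near 0 turned sign with the sample left out: *Cyr61* went from -0.01 to 0.50 without control replicate 2 and to -0.51 without *Kap1* KD replicate 2.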
